A study of Mus musculus with 2 samples.

Results

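Mature red cells set their volume with a small set of membrane proteins, and 7 genes for such proteins were followed here in differentiating mouse erythroid cells. They were Piezo1, Kcnn4, Slc12a4, Slc12a7, Slc12a2, Aqp1 and Atp2b4. The rule that picks them uses their names and known function and no measured value, but they were chosen with earlier results of these data known. All 7 were found by symbol among the 55536 mouse genes of the table, of which 22028 are protein-coding. The cells were G1E-ER4, an immortalized line derived from mouse cells lacking Gata1, in which a fusion of GATA1 with the ligand-binding part of the estrogen receptor restores GATA1 activity when estradiol is added. They were treated with 17beta-estradiol at 10 nM for 24 h, which starts erythroid differentiation in this line, and polyadenylated RNA was sequenced as paired ends. The 2 libraries, replicates 1 and 2, formed 1 group. There was no untreated or parental sample, so the values are levels in treated cells and not responses to estradiol. The labels call the libraries biological replicates 1 and 2. Both carry 1 biosample record, however, and the labels do not name separate cultures, so their spread could be purely technical. The line models erythroid precursors rather than mature red cells, and in it GATA1 acts through the fusion protein.

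A red cell shrinks when it loses potassium, chloride and water, and swells when it gains them. When the membrane is stretched, the PIEZO1 channel lets calcium in, calcium opens the Gardos potassium channel encoded by Kcnn4, and the cell loses potassium and water until the calcium pump encoded by Atp2b4 has lowered calcium again. Potassium-chloride cotransporters (Slc12a4, Slc12a7) also remove salt, the sodium-potassium-chloride cotransporter (Slc12a2) takes it up, and the aquaporin encoded by Aqp1 lets water follow. In people, activating variants of PIEZO1 or KCNN4 cause dehydrated red cells, and the AQP1 protein carries the Colton blood group antigens.

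The estradiol-treated cells held RNA of the calcium entry, potassium exit and calcium removal steps, but almost none of the salt uptake and water channel genes. Levels are given in TPM, transcript abundance scaled to a fixed total and corrected for transcript length, and detection meant at least 1 TPM in each library. Of the 7 genes, 4 were detected (Piezo1, Kcnn4, Slc12a4 and Atp2b4) and 3 were not (Slc12a7, Slc12a2 and Aqp1). The share of all protein-coding genes detected by this rule was 33.1%. In bulk RNA, fewer expressing cells and less RNA per cell cannot be told apart.

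Depth and identity of the libraries bear on every value that follows. The expected counts, the authors' estimated fragments, came to a total of 71485617 for replicate 1 and 14121747 for replicate 2. The limit that a count of 0 allows, taken here as 3 counts, was 0.042 CPM (counts scaled to library size) in replicate 1 and 0.212 CPM in replicate 2. All 9 erythroid markers were detected, among them Hbb-bs at 97719 and 34786 TPM, Hba-a1 at 67200 and 30385 TPM, Gata1 at 2890 and 2661 TPM and Klf1 at 634 and 2134 TPM in replicates 1 and 2. Because the line derives from cells lacking Gata1, the Gata1 level may be that of the GATA1 fusion and does not bear on cell identity. Hba-a1 has a near-identical neighbour, so its level is uncertain. Of 12 channel and transporter genes of muscle, neuron and kidney, 0 were detected, and Cacna1s and Kcnj1 had no counts in either library. The summed level of the 9 erythroid markers was 169642 TPM in replicate 1 and 70644 TPM in replicate 2, and the part of this difference in the transporter values was not tested.

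**Figure D1:**
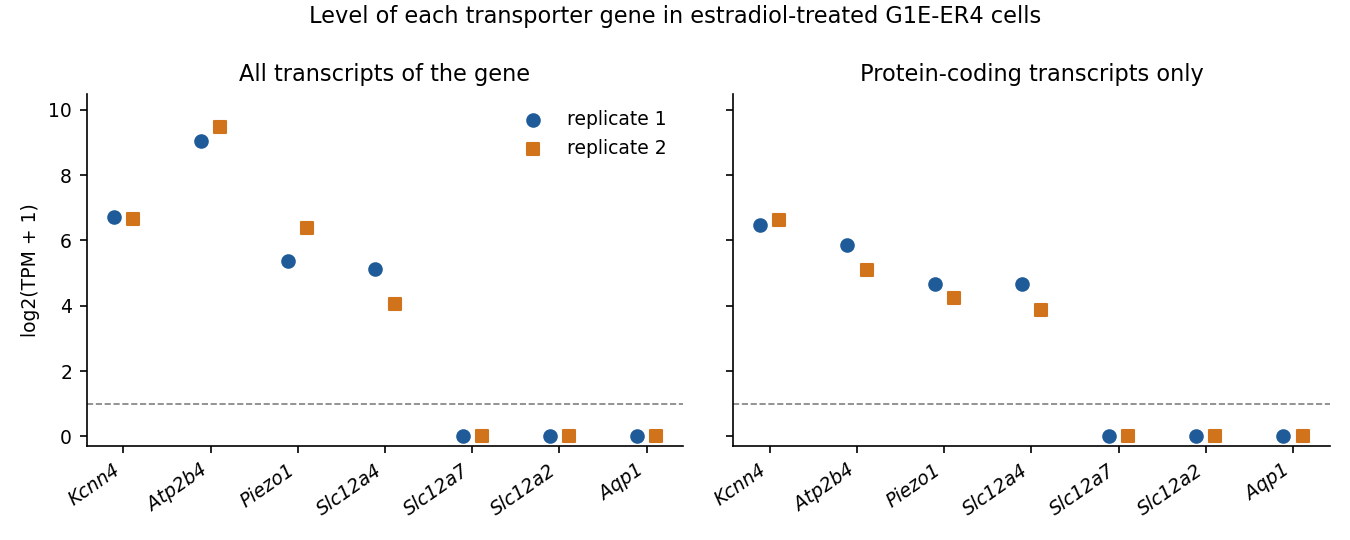
Level of each of the 7 genes as log2(TPM + 1) in replicate 1 (circles) and replicate 2 (squares), summed over all transcripts of the gene (left) or over its protein-coding transcripts (right); the dashed line is 1 TPM. Atp2b4 is the highest gene on the left, at 524 and 710 TPM, and lies below Kcnn4 on the right, while Slc12a7, Slc12a2 and Aqp1 lie at or next to 0 in both panels.

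Piezo1 encodes the mechanically gated cation channel through which stretch lets calcium into the cell. The gene (ENSMUSG00000014444.17) lies on chromosome 8 from 122481698 to 122551329, minus strand, in mm10 (GRCm38). It had 40.1 TPM in replicate 1 and 82.9 TPM in replicate 2 (mean 61.5 ± 30.2 TPM, SD, n = 2), on 17704 and 2764 expected counts. Replicate 2 was thus the higher library, and the authors' intervals for the posterior TPM, 38.5 to 41.2 TPM and 71.4 to 86.8 TPM, did not overlap. Among protein-coding genes Piezo1 stood at the 89.1 percentile in replicate 1 and the 94.0 percentile in replicate 2.

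The excess of Piezo1 in replicate 2 lay in 1 short transcript without a coding sequence. Piezo1-207, annotated as a retained intron of 506 bases, had 0 TPM in replicate 1 and 53.6 TPM in replicate 2, on 0 and 249 expected fragments, and so held 0% and 64.7% of the gene's TPM. It held only 9.01% of the gene's fragments in replicate 2, because TPM divides fragments by transcript length. The full-length coding transcript Piezo1-209, of 8219 bases, had 20.8 TPM in replicate 1 and 18.0 TPM in replicate 2. Piezo1-207 differs from the coding exons by an intron of 85 bases, and all other bases of it lie in exons of coding or decay transcripts.

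Another short retained-intron transcript, Piezo1-205 of 698 bases, went the other way, with 6.54 TPM in replicate 1 and 0 TPM in replicate 2, or 16.3% and 0% of the gene. Piezo1-204, annotated as a target of nonsense-mediated decay, had 5.78 and 7.49 TPM, or 14.4% and 9.04% of the gene. In the authors' table made from reads Piezo1-204 held only 0.10% and 0% of the gene, and Piezo1-207 had 0.027 TPM in replicate 1 and 5.48 TPM in replicate 2. As a share of the gene, Piezo1-207 held 0.11% and 47.0% in the table made from reads. Both kinds of table therefore placed Piezo1-207 in replicate 2, at different TPM but with a large share of the gene in each.

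The stretches that set these short transcripts apart are shown, since they hold all 85 bases of Piezo1-207, and 78 of the 87 bases of Piezo1-205, that lie outside the coding and decay forms. They are read 5′ to 3′ on the minus strand from the GENCODE M21 transcripts. Capitals mark intron bases that lie in no exon of a coding or decay transcript, and lower case marks the exon bases on either side. The Piezo1-207 intron lies at chr8:122484877-122484961 and the Piezo1-205 intron at chr8:122482232-122482309. Both start with GT and end with AG, the usual splice-site letters.
Piezo1-207 intron: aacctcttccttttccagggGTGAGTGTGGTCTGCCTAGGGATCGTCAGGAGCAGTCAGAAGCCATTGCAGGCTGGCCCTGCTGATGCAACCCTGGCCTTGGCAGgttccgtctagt
Piezo1-205 intron: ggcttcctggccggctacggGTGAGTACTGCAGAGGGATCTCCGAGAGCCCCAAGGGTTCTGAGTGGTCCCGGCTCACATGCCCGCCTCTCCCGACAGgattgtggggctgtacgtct
Whether fragments in them are unspliced RNA that had not yet lost its introns was not tested.

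A gene on the opposite strand, Ctu2, overlaps the 3′ end of Piezo1. It had 8.15 TPM in replicate 1 and 19.2 TPM in replicate 2. Its exons share 1409 of the 8219 bases of Piezo1-209, all 698 bases of Piezo1-205 and 0 bases of Piezo1-207. The strand setting of the counting was not given in the sources used here. Whether reads of Ctu2 were kept apart from those of Piezo1-205 is therefore unknown.

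Summed over protein-coding transcripts only, Piezo1 had 24.6 TPM in replicate 1 and 18.0 TPM in replicate 2 (mean 21.3 ± 4.67 TPM, SD, n = 2). On this scale replicate 2 was the lower library. In CPM it was lower as well, at 248 CPM in replicate 1 and 196 CPM in replicate 2.

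Kcnn4 encodes the Gardos channel, which calcium opens through bound calmodulin and which lets potassium leave. The gene (ENSMUSG00000054342.8) lies on chromosome 7 from 24370263 to 24386690 on the plus strand. It had 105 TPM in replicate 1 and 101 TPM in replicate 2 (mean 103 ± 2.99 TPM, SD, n = 2), on 12676 and 2225 expected counts. Both libraries gave nearly the same level, at the 95.1 and 94.9 percentiles of protein-coding genes. The authors' intervals, 102 to 106 TPM and 91.1 to 99.4 TPM, did not overlap. These intervals belong to the posterior TPM, with means of 104 and 95.1 TPM, and the 101 TPM of replicate 2 lies above its interval.

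Most Kcnn4 RNA was in 1 coding transcript. Kcnn4-202 had 85.5 TPM in replicate 1 and 98.0 TPM in replicate 2, or 81.3% and 97.1% of the gene. The retained-intron transcript Kcnn4-204, of 614 bases, had 14.5 and 2.63 TPM, or 13.8% and 2.61%. Replicate 1 thus carried more of the intron form, on 485 fragments in replicate 1 and 15.7 fragments in replicate 2. Its intron of 191 bases lies at chr7:24382281-24382471 on the plus strand and is shown because coding Kcnn4 transcripts lack it; capitals again mark the intron.
Kcnn4-204 intron: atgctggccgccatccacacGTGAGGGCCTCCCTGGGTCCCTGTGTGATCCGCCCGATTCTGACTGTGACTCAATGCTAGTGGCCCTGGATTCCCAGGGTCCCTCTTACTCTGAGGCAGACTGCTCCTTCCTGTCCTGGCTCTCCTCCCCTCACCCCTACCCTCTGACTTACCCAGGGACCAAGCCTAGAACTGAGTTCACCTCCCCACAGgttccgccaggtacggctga
Summed over coding transcripts, Kcnn4 had 87.4 TPM in replicate 1 and 98.0 TPM in replicate 2 (mean 92.7 ± 7.51 TPM, SD, n = 2). It was the highest of the 7 genes on that scale in both libraries.

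Slc12a4 encodes KCC1, the potassium-chloride cotransporter of many tissues. The gene (ENSMUSG00000017765.17) lies on chromosome 8 from 105943590 to 105966097 on the minus strand. It had 33.8 TPM in replicate 1 and 15.7 TPM in replicate 2 (mean 24.7 ± 12.8 TPM, SD, n = 2), on 6631 and 628 expected counts. Replicate 2 was the lower library on the TPM, CPM and coding-transcript scales, and the authors' intervals, 31.9 to 35.2 TPM and 13.6 to 17.3 TPM, lay apart.

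The coding RNA of Slc12a4 was split between a pair of transcripts that differ mostly at their 5′ ends. Slc12a4-202 had 16.6 TPM in replicate 1 and 6.98 TPM in replicate 2, and Slc12a4-201 had 7.89 and 6.77 TPM. Their shares of the gene were 49.1% and 44.5% for Slc12a4-202 and 23.4% and 43.2% for Slc12a4-201. The table made from reads split them otherwise, with 23.1% and 0.86% for Slc12a4-202 and 27.9% and 79.4% for Slc12a4-201, so this division is uncertain. The retained-intron transcript Slc12a4-205, of 461 bases, had 9.26 TPM in replicate 1 and 1.92 TPM in replicate 2, or 27.4% and 12.3% of the gene, on 3.13% and 1.25% of its fragments. The antisense gene Gm16156 shares 361 bases with the coding transcripts and had 0.07 and 0 TPM.

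Slc12a7 encodes KCC4, the other potassium-chloride cotransporter of the set, and lay at the limit of detection. The gene (ENSMUSG00000017756.9, chromosome 13 from 73733094 to 73816754, plus strand) had 2 expected counts in replicate 1 and 0 in replicate 2, or 0.01 and 0 TPM. Both fragments of replicate 1 were assigned to Slc12a7-207, a transcript with no coding sequence, and the coding transcript Slc12a7-201 had none. A count of 0 allows up to 3 counts, or 0.108 TPM in replicate 2. The authors' posterior mean was nevertheless 0.24 TPM in replicate 1 and 1.20 TPM in replicate 2, spread over 11 annotated transcripts, and its interval reached 2.21 TPM in replicate 2. The value above 1 TPM in that library therefore rested on no assigned fragment.

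Slc12a2 encodes NKCC1, the cotransporter that brings sodium, potassium and chloride into cells, and it was not detected. The gene (ENSMUSG00000024597.11, chromosome 18 from 57878678 to 57946821, plus strand) had 0 expected counts in both libraries. The limit this allows was 0.0077 TPM in replicate 1 and 0.045 TPM in replicate 2. In the table made from reads it had 3 counts in replicate 1 and 4 in replicate 2.

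Aqp1 encodes the water channel of the red cell membrane and had 0 expected counts in both libraries. The gene (ENSMUSG00000004655.5) lies on chromosome 6 from 55336432 to 55348555 on the plus strand and has 1 annotated transcript. The limit was 0.0167 TPM in replicate 1 and 0.0973 TPM in replicate 2. In the table made from reads it had 1 count in each library, so a low level below these limits was not detectable at this depth.

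Atp2b4 encodes PMCA4, the plasma membrane pump that exports calcium and so ends the action of PIEZO1 and the Gardos channel. In people, an erythroid enhancer inside ATP2B4 carries variants associated with malaria risk and red cell hydration. The mouse gene (ENSMUSG00000026463.17) lies on chromosome 1 from 133699457 to 133801041 on the minus strand. It had 524 TPM in replicate 1 and 710 TPM in replicate 2 (mean 617 ± 131 TPM, SD, n = 2), on 59225 and 7378 expected counts. Replicate 2 was higher, and the authors' intervals, 509 to 527 TPM and 645 to 689 TPM, did not overlap. These intervals belong to the posterior TPM, with means of 518 and 667 TPM, and the 710 TPM of replicate 2 lies above its interval. By gene TPM Atp2b4 was the highest of the 7 genes, at the 99.02 and 99.12 percentiles of protein-coding genes.

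Nearly all of that level belonged to a short transcript with no coding sequence. Atp2b4-204, annotated as a processed transcript of 588 bases in 3 exons, had 466 TPM in replicate 1 and 677 TPM in replicate 2, or 88.9% and 95.3% of the gene. The table made from reads gave it 87.9% and 90.1% of the gene, so both kinds of table placed most of the gene there. By fragments the share was smaller, 24.9% in replicate 1 and 51.9% in replicate 2, since its 14728 and 3828 fragments fall on a far shorter RNA than the coding forms. For comparison, among the 6149 detected protein-coding genes with a transcript of another biotype, the median share of TPM outside protein-coding transcripts was 17.7% in replicate 1 and 19.6% in replicate 2. A share as large as that of Atp2b4 or larger was found in 9.32% and 11.6% of these genes.

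**Figure D2:**
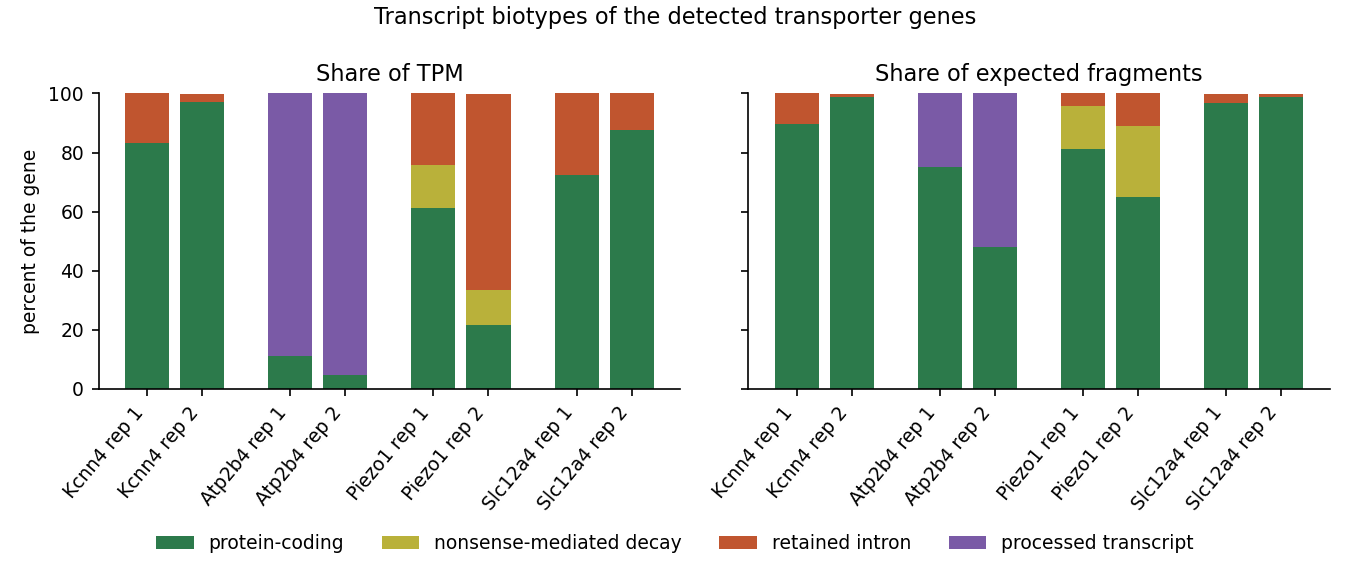
Share of each detected gene by transcript biotype in each library, by TPM (left) and by expected fragments (right), in percent on axes that start at 0. The processed transcript fills 88.9% and 95.3% of the Atp2b4 TPM but 24.9% and 51.9% of its fragments, and retained introns fill 24.3% and 66.5% of the Piezo1 TPM.

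The structure of Atp2b4-204 places it at the 5′ end of the gene. Its first exon of 400 bases lies within the first exon of Atp2b4-206, the longest coding transcript, which starts 5 bases further upstream and has 11725 bases. Its last exon of 50 bases is the start of the next exon of Atp2b4-206, an exon of 661 bases that holds the coding start. Between them it has an exon of 138 bases at chr1:133784868-133785005 that no coding transcript of the gene uses, shown here in capitals with exon bases on either side, 5′ to 3′ on the minus strand.
Atp2b4-204 middle exon: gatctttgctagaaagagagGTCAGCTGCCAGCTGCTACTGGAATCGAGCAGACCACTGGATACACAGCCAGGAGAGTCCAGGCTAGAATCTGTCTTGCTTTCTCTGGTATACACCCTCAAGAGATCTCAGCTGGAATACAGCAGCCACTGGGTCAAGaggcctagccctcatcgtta
Fragments that lie wholly within the first 400-base exon or the last 50-base exon of Atp2b4-204 do not separate it from Atp2b4-206.

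**Figure D3:**
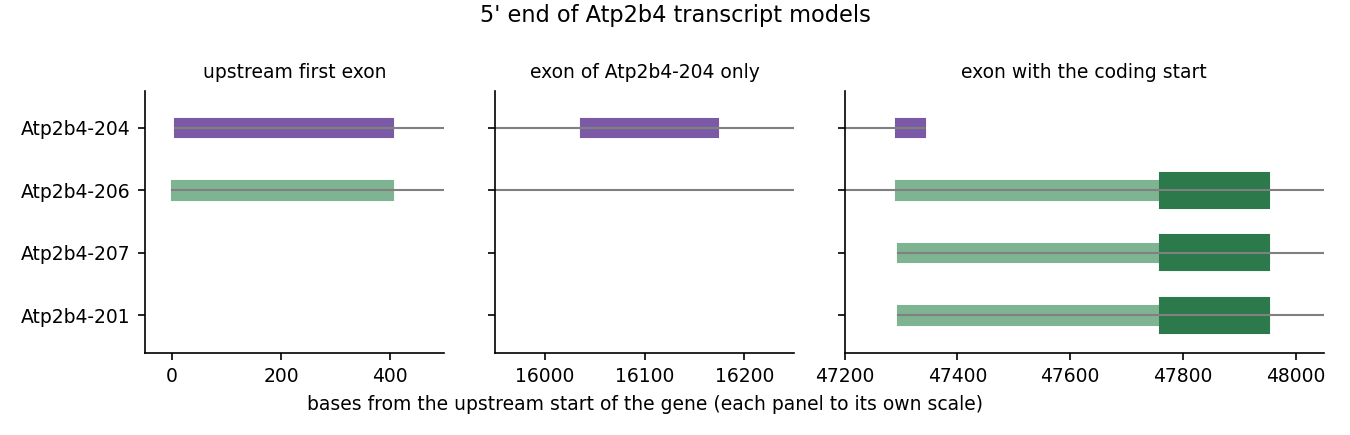
Exons at the 5′ end of 4 Atp2b4 transcripts, by distance in bases from the upstream start of the gene, each panel to its own scale; boxes are exons, tall boxes coding sequence and lines introns. Atp2b4-204 shares its first exon of 400 bases with Atp2b4-206, has a middle exon of 138 bases of its own and ends 50 bases into the exon with the coding start.

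The coding RNA of Atp2b4 was divided between transcripts with different starts, and the division was not stable. Atp2b4-206, from the upstream start, had 43.4 TPM in replicate 1 and 6.93 TPM in replicate 2. Atp2b4-207, which starts at the exon with the coding start, had 10.8 and 26.0 TPM. These are named beside the rule for transcripts, after their values were seen, because they carry the coding RNA. The table made from reads gave Atp2b4-206 8.28 and 0.77 TPM and Atp2b4-207 45.0 and 19.1 TPM. With annotation M4 they had 54.2 and 13.4 TPM (Atp2b4-206) and 0 and 22.3 TPM (Atp2b4-207). Atp2b4-206 was therefore the larger of the pair in replicate 1 of both alignment-based tables. Atp2b4-207 was larger in their replicate 2 and in both libraries of the table made from reads.

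Over coding transcripts together Atp2b4 had 57.4 TPM in replicate 1 and 32.9 TPM in replicate 2 (mean 45.2 ± 17.3 TPM, SD, n = 2). Replicate 2 was the lower library on this scale, as it was in CPM, at 828 CPM in replicate 1 and 522 CPM in replicate 2. The gene's effective length, the TPM-weighted length of its transcripts, was 1559 bases in replicate 1 and 842 bases in replicate 2. That of Piezo1 was 6091 and 2701 bases. For both genes the weighted length was shorter in replicate 2, the library in which the short transcripts held more of the TPM.

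The order of levels changed with the choice of transcripts. By gene TPM it was Atp2b4, Kcnn4, Piezo1 and Slc12a4 in both libraries, and the ranges of neighbours did not overlap, though the means of Piezo1 and Slc12a4 differed by less than the sum of their SDs. In the table made from reads the last pair was turned round in replicate 1, where Piezo1 was 0.717 times Slc12a4, and it was 2.70 times in replicate 2. Atp2b4 was 4.98 times Kcnn4 in replicate 1 and 7.03 times in replicate 2. The same 4 of 7 genes reached 1 TPM by protein-coding transcripts alone, a scale chosen after seeing the data, as did 28.3% of protein-coding genes. On it the order was Kcnn4, Atp2b4, Piezo1 and Slc12a4 in both libraries and in both kinds of table. Kcnn4 was then 1.52 and 2.98 times Atp2b4 in the first table, and 1.01 and 1.25 times in the table made from reads. The ranges of Piezo1, 24.6 and 18.0 TPM, and Slc12a4, 24.5 and 13.8 TPM, overlapped there. The split between coding and other transcripts was itself unequal between libraries for other genes too, such as Hba-a1, whose coding transcripts had 2598 TPM in replicate 1 and 29117 TPM in replicate 2.

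The libraries were then compared gene by gene as the log2 ratio of replicate 2 over replicate 1, with no test, since each side is 1 library. Of the 7 genes, only the 4 detected ones had a mean of at least 50 expected counts and could be called. Of these 4, 2 were more than 2-fold apart in TPM, Piezo1 with a log2 ratio of 1.05 and Slc12a4 with -1.11. Among genes with a mean of at least 50 expected counts, 51.0% were over 2-fold apart, 15.5% higher and 35.4% lower in replicate 2. The median log2 ratio of all genes compared was -0.39, so most genes were lower in replicate 2. Atp2b4 had a log2 ratio of 0.44 and Kcnn4 of -0.06.

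Scales without a length term gave other values. In CPM 1 of the 4 detected genes, Slc12a4, was over 2-fold apart, and it was lower in replicate 2. Of all genes with a mean of at least 50 expected counts 51.0% were, 9.67% higher and 41.3% lower. In CPM the log2 ratio of Piezo1 was -0.34, of Atp2b4 -0.67, of Kcnn4 -0.17 and of Slc12a4 -1.06, beside a median of all genes of -0.64. The CPM ratio of Piezo1 was 0.790, with an exact 95% binomial interval of 0.759 to 0.823 that covers counting error only. Over protein-coding transcripts the log2 ratios were -0.45 for Piezo1, -0.80 for Atp2b4, 0.17 for Kcnn4 and -0.83 for Slc12a4, beside a median of -0.57. On that scale 0 of the 4 detected genes were over 2-fold apart, against 55.8% of the genes compared, 12.6% higher and 43.2% lower. Piezo1 and Atp2b4 were thus higher in replicate 2 by gene TPM and lower in it by CPM and by coding transcripts. Slc12a4 was lower in replicate 2 on each of these scales.

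**Figure D4:**
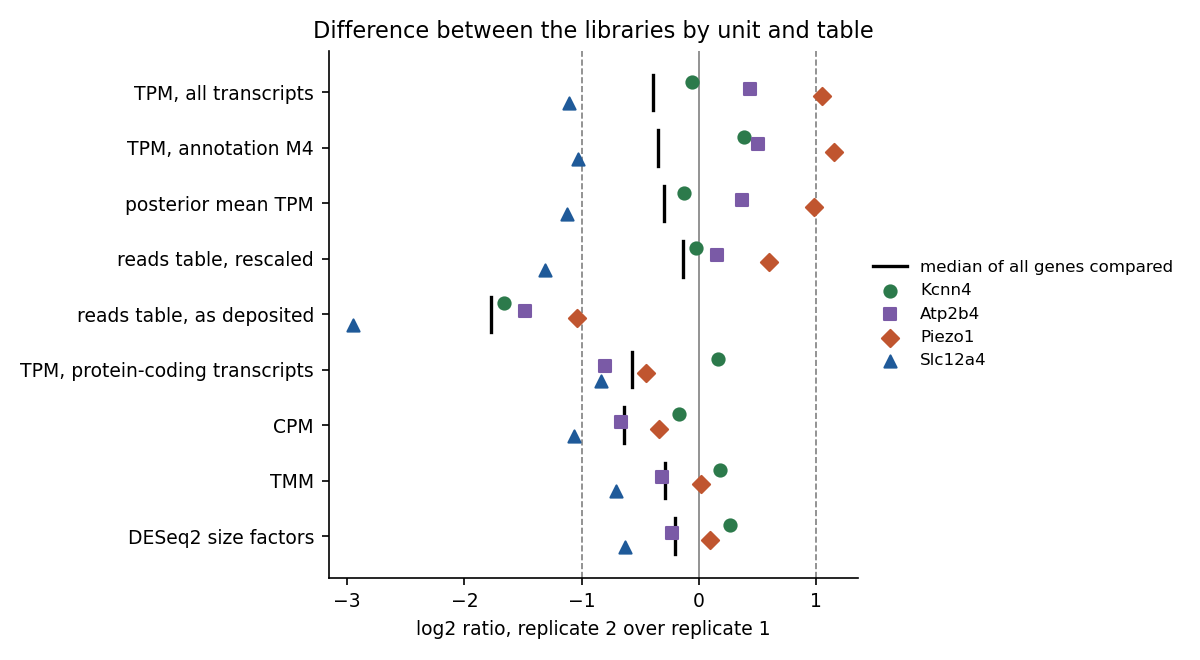
Log2 ratio of replicate 2 over replicate 1 for the 4 detected genes under 9 units or tables; the black bar is the median of all genes compared and dashed lines mark 2-fold. Piezo1 lies at 1.05 in gene TPM and at -0.34 in CPM, while Slc12a4 lies left of the median of all genes in each row, from -0.63 to -2.95.

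Genes that work with these transporters were read from 9 lists with 82 genes. Their levels are summed over all transcripts unless coding transcripts are named. Of these, 33 genes, or 40.2%, were detected, beside 33.1% of all protein-coding genes. By protein-coding transcripts alone 31 were detected, beside 28.3% of protein-coding genes. The median level was 0.14 and 0.175 TPM over the 82 genes, and 0.01 and 0.02 TPM over all protein-coding genes in replicates 1 and 2.

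**Figure D5:**
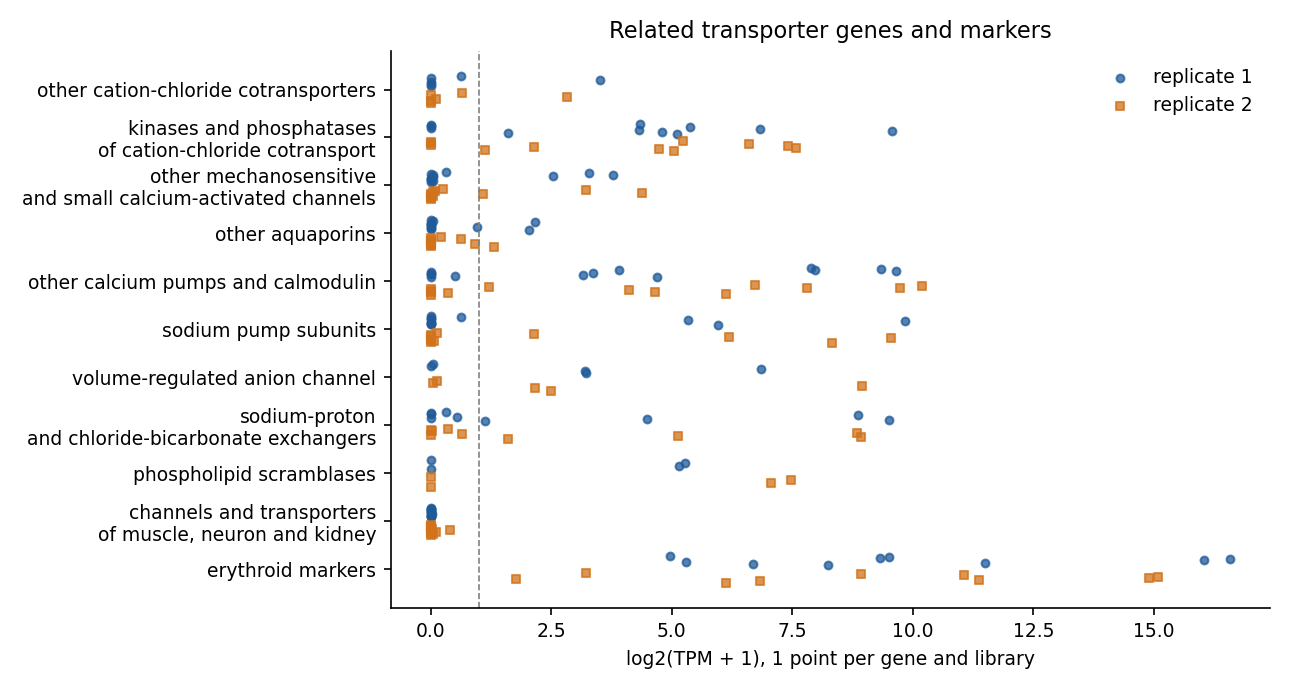
Levels as log2(TPM + 1) of the genes in the 9 related lists and in the lists of other-tissue channels and erythroid markers, 1 point per gene for replicate 1 (circles) and replicate 2 (squares); the dashed line is 1 TPM. All 9 erythroid markers and 0 of 12 other-tissue channels lie right of the line in both libraries.

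Around Piezo1 and Kcnn4, 3 of 12 other mechanosensitive and small calcium-activated channel genes were detected. Tmem63b, a channel opened by osmotic stretch, had 12.7 and 19.9 TPM, the heat- and stretch-sensitive channel gene Trpv2 had 8.72 and 8.30 TPM, and Tmem63a had 4.77 and 1.13 TPM. All 3 lay below both values of Piezo1. The calcium-activated potassium channel genes Kcnma1 and Kcnn2 had no expected counts in either library.

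Of 6 other cation-chloride cotransporter genes, 1 was detected. The kidney genes Slc12a1 and Slc12a3 had no counts in either library.

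WNK kinases and the kinases SPAK and OSR1 phosphorylate these cotransporters, which activates NKCC1 and inhibits the KCCs, and protein phosphatase 1 reverses it. Of 11 such genes 8 were detected. The phosphatase subunit genes Ppp1ca, at 759 and 191 TPM, and Ppp1cc, at 113 and 170 TPM, were the highest. Wnk1 had 40.6 and 96.6 TPM, of which coding transcripts held 15.25 and 25.05 TPM. Cab39, which encodes the SPAK and OSR1 partner MO25, had 33.6 and 31.9 TPM, nearly all of it in coding transcripts. Stk39, the SPAK gene, and Wnk2 had no counts in either library.

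Of 13 genes for other calcium pumps, calmodulin and pump partners, 8 were detected. Calm3 had 651 and 1171 TPM, but the calmodulin genes encode the same protein, and its level may be uncertain where reads are shared. Bsg and Nptn encode basigin and neuroplastin, which bind plasma membrane calcium pumps as subunits. Bsg had 802 and 851 TPM, and Nptn had 235 and 106 TPM, of which coding transcripts held 11.2 and 16.4 TPM. The neuronal pump genes Atp2b2 and Atp2b3 had no counts.

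For the sodium pump, 3 of 11 subunit genes were detected. The beta subunit genes Atp1b2 and Atp1b3 had 914 and 748 TPM and 39.5 and 72.4 TPM. Coding transcripts held 374 and 425 TPM of Atp1b2 and all of the Atp1b3 level. Atp1a4 had no counts in either library.

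Of 5 genes for the volume-regulated anion channel, 3 were detected. Lrrc8c had 115 TPM in replicate 1 and 496 TPM in replicate 2, of which coding transcripts held 87.9 and 221 TPM. Lrrc8a, the obligatory subunit, had 8.34 and 4.62 TPM, and Lrrc8b had 8.24 and 3.46 TPM. Lrrc8d and Lrrc8e were at 0.09 TPM or less.

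Of 9 sodium-proton and chloride-bicarbonate exchanger genes, 4 were detected. Slc4a1, which encodes band 3, the red cell anion exchanger, had 725 and 484 TPM. Slc4a2 had 21.5 and 34 TPM and Slc26a6 1.17 and 2.04 TPM. Slc9a3 had no counts and Slc4a3 had 1 count in each library.

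Of 4 scramblase genes, 2 were detected, Plscr3 at 38.0 and 176 TPM and Plscr1 at 34.6 and 132 TPM. Both were higher in replicate 2. Ano6, a calcium-activated scramblase gene, had no expected counts, and Xkr8 had 4 counts in replicate 1 and 0 in replicate 2. Of 11 other aquaporin genes only Aqp11 was detected, with 3.09 and 1.5 TPM. Aqp2 and Aqp12 had no counts.

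The promoters were read because Kcnn4 and Atp2b4 were high and Aqp1 was not detected in the same cells. RefSeq windows (GRCm38.p6) were read for 6 of the 7 genes, and that of Slc12a2 was not used here. The 250 bases before each start were searched on both strands for the word of GATA factors (GATA with A or T before it and A or G after it) and for CACCC, the core of the words bound by KLF1. A GATA word was found before Atp2b4 alone, an AGATAA 206 bases before the start, and 26.5% of 32851 promoter windows of this length hold one. CACCC was found 3 times before Kcnn4 and before Aqp1, 2 times before Slc12a4, 1 time each before Piezo1 and before both Slc12a7 starts, and not before Atp2b4, and 52.0% of windows hold it. Capitals mark the GATA word in the windows of Atp2b4 (chr1:133753748-133753997, minus strand), Kcnn4 (chr7:24370013-24370262, plus strand) and Aqp1 (chr6:55336049-55336298, plus strand).
Atp2b4 promoter: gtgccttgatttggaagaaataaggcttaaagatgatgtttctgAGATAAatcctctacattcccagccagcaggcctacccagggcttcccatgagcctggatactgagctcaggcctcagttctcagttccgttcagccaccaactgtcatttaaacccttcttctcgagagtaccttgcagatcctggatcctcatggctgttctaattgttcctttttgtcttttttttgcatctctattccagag
Kcnn4 promoter: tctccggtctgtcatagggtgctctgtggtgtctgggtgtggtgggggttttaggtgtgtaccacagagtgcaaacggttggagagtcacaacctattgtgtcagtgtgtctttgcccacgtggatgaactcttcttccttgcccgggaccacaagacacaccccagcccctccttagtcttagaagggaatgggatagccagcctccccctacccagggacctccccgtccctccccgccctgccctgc
Aqp1 promoter: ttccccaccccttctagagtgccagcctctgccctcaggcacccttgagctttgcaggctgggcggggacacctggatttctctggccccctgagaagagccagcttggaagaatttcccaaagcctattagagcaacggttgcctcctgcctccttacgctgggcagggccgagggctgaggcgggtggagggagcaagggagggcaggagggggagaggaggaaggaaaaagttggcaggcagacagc
The Atp2b4 window ends 2 bases inside the second exon of Atp2b4-206, so it covers the start of Atp2b4-207 and Atp2b4-201 and not the upstream start that Atp2b4-204 and Atp2b4-206 use. A matching word is a description of these letters only.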

How the data were processed

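The 2 libraries formed 1 group. Per the deposited descriptions, gene and transcript tables for GENCODE M21 and M4 on mm10 were made from alignments to the transcriptome, and another M21 transcript table from reads. Aligner and quantifiers: not given in the sources used here. Deposited expected counts, without normalization, estimate the fragments of each entry. TPM values in the deposited tables are maximum likelihood and posterior mean estimates scaled over each table. The deposited interval bounds of the posterior TPM were used as the authors' signal limits, at a level unknown here. The deposited percent column holds transcript shares, which were recomputed here from TPM. The strand setting was also not given in the sources used here.

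Values are from the M21 gene table unless another is named. The 7 genes, lists and thresholds were chosen with earlier results of these data known. Detection meant 1 TPM or more in both libraries. Ratios used genes with a mean of at least 50 expected counts, without a pseudocount; figures use log2(TPM + 1). All 7 genes were described, with up to 4 detected and 2 undetected genes of each list and transcripts at 10% or more of a gene's TPM in either library; some genes named by it are not reported here. No gene was named for a like pattern, since 2 libraries of 1 group give none. With 1 group no test was possible. Coding-transcript TPM, added after seeing the data, sums transcripts of biotype protein_coding and was available for 21951 protein-coding genes, of which 28.3% reached 1 TPM in both libraries. Other alternatives were M4, the table from reads as deposited and rescaled over nuclear protein-coding genes, posterior means, CPM, edgeR TMM, DESeq2 size factors on rounded expected counts, other thresholds and each library alone. The code that counts fold changes was tested on simulated data. Software was Python 3.11.15 with pandas 2.3.3, numpy 2.4.6, matplotlib 3.10.9 and scipy 1.17.1, and DESeq2 1.42.0 and edgeR 4.0.16 in R 4.3.3. Replicate 1 was 5.06 times as deep as replicate 2 by expected counts. The table made from reads held 99236349 counts in replicate 1 and 31979129 in replicate 2, so the difference in depth depends on the table. The binomial interval and the limits cover counting error only.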

Additional observations from a re-analysis of the deposited data

How the results depend on the processing

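The count of 4 detected genes among the 7 was the same under each alternative run, including the added sum over protein-coding transcripts, and with each library alone. Related genes detected ranged from 25 at 5 TPM to 38 at 10 or more expected counts, against 33 of 82. The count over 2-fold apart was 2 in TPM, M4, with TPM + 1 and at a minimum of 10 counts. It was 4 in the table made from reads, all lower in replicate 2, where the median of all genes was -1.77. It was 1 in that table once rescaled, with posterior means, in CPM, and with the median of all genes set to 0, and it was 0 with edgeR TMM, DESeq2 size factors and protein-coding transcripts. The Piezo1 log2 ratio of 1.05 in TPM changed sign over protein-coding transcripts, at -0.45, and in CPM, at -0.34. It also changed sign in the table made from reads, at -1.04 beside that median of -1.77, but was 0.60 once that table was rescaled. The effective length of the gene differed between libraries, and the cause of these sign changes was not tested. The Atp2b4 log2 ratio, 0.44 in TPM and under 2-fold, was also below 0 in those settings, from -1.48 to -0.67. With edgeR TMM and DESeq2 size factors it was -0.31 and -0.23. The lowest value, -1.48, was in the table made from reads, and once that table was rescaled the ratio was 0.16. Of 44 log2 ratios under alternatives, 29 moved beyond counting error and 3 changed sign from a 2-fold call. By the SD between libraries, 17 of 49 mean levels and 8 of 28 transcript shares moved. The level of 1 library alone can never pass that SD, and for Aqp1 and Slc12a2 it was 0, so any change counted. The tally of mean levels therefore says little about how stable they are. No paired analysis was possible because the libraries form 1 group. Depth limits replicate 2 most, where a count of 0 allows 0.212 CPM.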
